A study of Mus musculus with 10 samples.

Results

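Steroid hormone receptors and glucocorticoid response genes were measured by RNA sequencing in mouse embryonic fibroblasts, which are primary connective tissue cells grown out of embryos. The 8 genes were chosen by symbol among the 52550 genes of the deposited table. They are 5 receptor genes (Esr1, Esr2, Pgr, Nr3c1 and Nr3c2) and 3 genes that glucocorticoids are known to induce (Fkbp5, Tsc22d3 and Zbtb16). All cells were C57BL/6 cells from embryonic day 14, used at passage 3, with 5 female and 5 male libraries, and the study asked which genes differ between the sexes. No hormone treatment and no genetic change is named for either sex, and the culture medium held fetal bovine serum. Whether the 5 libraries of a sex stem from different embryos, or from different cultures, is not stated in the labels, and the p-values therefore reflect the scatter of these libraries, some or all of which may be technical.

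Steroid receptors are transcription factors switched on by a hormone that crosses the cell membrane. The glucocorticoid receptor Nr3c1 and the mineralocorticoid receptor Nr3c2 bind closely related DNA elements and can both bind corticosterone, while the oestrogen receptors Esr1 and Esr2 bind a different element. Pgr, the progesterone receptor, is a classic oestrogen-induced gene in the uterus and the mammary gland. Before hormone binds, the receptors are held by heat shock chaperones, and Fkbp5 encodes a cochaperone that lowers the affinity of the glucocorticoid receptor for hormone and is itself induced by that receptor.

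The libraries held 35861359 to 45859721 unique gene reads in females and 30662616 to 40664001 in males. Xist was at 17.3 to 25.7 CPM (unique gene reads scaled to library size) in female libraries and at most 0.0579 CPM in male ones. Ddx3y was at most 0.463 CPM in females and 54.7 to 68.2 CPM in males, so the sex-linked transcripts matched the labels in all 10 libraries. Most Xist reads in females were not unique, with 711 unique of 14015 total gene reads in female replicate 1. Its CPM values leave the other reads out. Fibroblast markers were abundant, and the 10 on the list summed to 22468 to 29800 CPM in females and 23077 to 28873 CPM in males. The cells therefore carried the markers of their labelled type. These are bulk samples, in which fewer cells of a type and less RNA per cell cannot be told apart.

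Of the 5 receptor genes the glucocorticoid receptor was by far the most abundant. On the scale of unique exon reads scaled by exon length and by the unique gene reads of the library (RPKM), Nr3c1 averaged 9.84 ± 1.03, Esr2 0.318 ± 0.117, Pgr 0.271 ± 0.143, Esr1 0.164 ± 0.0329 and Nr3c2 0.124 ± 0.0297 over the libraries (SD, n = 10). The lowest Nr3c1 library, at 8.55 RPKM, lay above the highest library of each of the other 4 receptor genes. The ranges of Esr2 and Pgr, of Pgr and Esr1, and of Esr1 and Nr3c2 overlapped. Esr2 was above Pgr in 5 of the 10 libraries, Pgr above Esr1 in 7 and Esr1 above Nr3c2 in 7. The order of these neighbours thus varied between libraries, and no test between genes was made. Among the targets, Tsc22d3 averaged 4.46 ± 0.394 RPKM and Fkbp5 3.78 ± 0.610 RPKM, with overlapping ranges, and Zbtb16 averaged only 0.0140 ± 0.0111 RPKM.

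**Figure D1:**
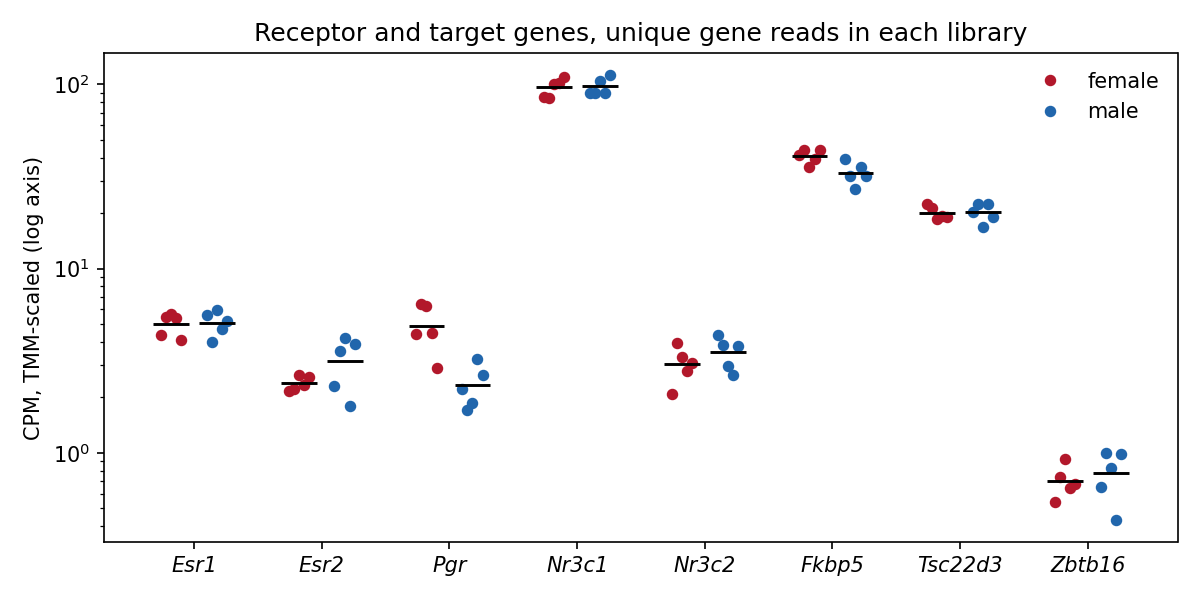
CPM with TMM scaling (log axis) of the 5 receptors and 3 targets in each library, female left of male for each gene; each point is a library and each bar the mean of 5. Pgr is the gene with the widest gap between the sex means on this axis, 4.91 CPM in females and 2.34 CPM in males, with 1 female library lower than 1 male library, and Nr3c1 stands highest.

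With edgeR's quasi-likelihood test, all 8 genes passed the filter on low counts and 0 of 8 were called between the sexes at a Benjamini-Hochberg adjusted p under 0.05, where 15 of 16602 tested genes (0.0904%) were called. For none of the 8 did the sexes separate without overlap, which 0.976% of tested genes did. At an unadjusted p under 0.05, 2 of the 8 (Pgr and Fkbp5) were past the threshold, both with the higher mean in females, against 2.05% of all tested genes in that direction. DESeq2 called 1 of the 8, Pgr, and 72 of 15634 genes (0.461%), with 0.0704% of genes called higher in females.

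Pgr had the largest sex difference of the 8. Its level was 4.45, 6.45, 6.27, 4.49 and 2.88 CPM in female replicates 1 to 5, against 2.22, 1.71, 1.86, 3.24 and 2.65 CPM in male replicates 1 to 5. Of the females only replicate 5 fell into the male range, below male replicate 4, so the female value was the higher one in 24 of the 25 female and male pairings. The means were 4.91 ± 1.48 CPM in females and 2.34 ± 0.625 CPM in males (SD, n = 5 each). The log2 fold change was 1.07 with a standard error of 0.23 and a 95% interval of 0.63 to 1.52, and the edgeR adjusted p was 0.179 (unadjusted 0.000313). Pgr ranked 29 by p among all tested genes, and 6 genes had a larger log2 fold change in the female direction. The spread of Pgr within a sex was wide, with a coefficient of variation of 30.1% in females and 26.8% in males, where counting alone would give 7.13% and 10.9%.

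The call on Pgr depended on the tool and on 1 library. DESeq2 gave it a log2 fold change of 1.08 and an adjusted p of 0.00172, and the authors' deposited table lists a fold of 2.10 in the female direction with a false discovery rate of 0.00660. Without female replicate 5, the female library with the least Pgr, edgeR called it at a log2 fold change of 1.22 and an adjusted p of 0.0247, where 0.0893% of genes were called. Exon and intron reads of Pgr gave the same direction. The log2 fold change was 1.20 ± 0.25 (SE; edgeR adjusted p = 0.144) from exon reads alone and 0.85 ± 0.25 (SE; edgeR adjusted p = 0.524) from intron reads alone. Of all genes tested with those reads, 0.118% were called from exon reads and 0.0983% from intron reads. Across the libraries, exon and intron CPM of Pgr varied together, with a Pearson r of 0.84 on log2 values and of 0.64 after each sex was centred on its mean (n = 10, a description in which each point shares a library).

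Pgr lies on chromosome 9 (mm10, 8899833 to 8968611, plus strand), and most of its unique reads fell in exons. Its promoter is shown because Pgr had the largest fold change between the sexes of the 8 genes and because Pgr is an oestrogen target in other tissues. The sequence is the 250 bases before the RefSeq start on GRCm38.p6, at chr9:8899583-8899832, read 5′ to 3′ on the plus strand.
Pgr: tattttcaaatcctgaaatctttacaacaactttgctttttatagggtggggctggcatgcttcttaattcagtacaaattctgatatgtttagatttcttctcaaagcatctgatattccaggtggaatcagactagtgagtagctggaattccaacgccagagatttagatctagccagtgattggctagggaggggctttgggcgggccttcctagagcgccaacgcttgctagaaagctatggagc
Both strands were searched for a single arm of the oestrogen response element (GGTCA or TGACC), for the full element (GGTCA and, after any 3 bases, TGACC), for a single arm of the glucocorticoid response element (GAACA or TGTTC) and for its core ACANNNTGT. A full oestrogen element contains both of its arms, and a glucocorticoid core can overlap an arm. None of the 4 motifs was found in this window, and matches would have been in capitals. Sites outside the 250 bases were not searched, so the lack of a match decides nothing about hormone control of Pgr. Over the 32851 promoters of the RefSeq table, the oestrogen arm occurred in 35.2%, the full oestrogen element in 0.0639%, the glucocorticoid arm in 36.2% and the core in 5.84%.

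Markers of other cell types were looked at beside this difference, first those of tissues known for high Pgr. Of 10 gonad markers, 7 were tested and 0 were called, Insl3 had no read in any library, and the list summed to 64.0 to 87.8 CPM in females and 57.2 to 74.0 CPM in males. Most of this sum was Fst, at 56.0 to 76.1 CPM in females and 46.6 to 65.1 CPM in males. Fst is also on the list of oestrogen and progesterone targets. Of 12 genes listed as markers of reproductive tract mesenchyme, 10 were tested and 0 were called. The list summed to 234.7 to 266 CPM in females and 241 to 270.0 CPM in males. Wnt5a made up most of these sums, with means of 162 CPM in females and 151 CPM in males. At an unadjusted p under 0.05, 1 of these 10 was higher in females, Amhr2, at a log2 fold change of 0.81 (SE 0.31). Another 4 were lower, among them Hoxa13 at -0.65 and Pax8 at -1.08 (SE 0.33). Amhr2, Hoxa13 and Pax8 were named after their values were seen. Amhr2 and Pax8 were low, at means of 0.483 and 0.531 CPM in females and 0.276 and 1.14 CPM in males. Of all tested genes, 2.05% were past that threshold with the higher mean in females. The share with the lower mean was not worked out. Whether the listed genes mark such cells in these cultures was not tested. All 7 tested macrophage markers had positive log2 fold changes, 2 of them past an unadjusted p of 0.05, and the list summed to 39.9 to 100.1 CPM in females and 46.9 to 71.8 CPM in males. Of 7 tested endothelial markers 0 were called and 1 was past an unadjusted p of 0.05, Flt1 at a log2 fold change of 0.54. Of these 7, 5 were positive and 2 negative, with a median of 0.07 and Kdr lowest at -0.36. The list summed to 103 to 156 CPM in females and 88.5 to 114 CPM in males, with Flt1 as its largest part. Of 5 tested epithelial markers 0 were called and 2 were past an unadjusted p of 0.05. These 2, Krt8 at 0.84 and Krt18 at 0.29, had the higher mean in females. The other 3 were negative, with a list median of -0.08 and Krt19 lowest at -0.32. The list summed to 62.6 to 89.0 CPM in females and 60.4 to 115 CPM in males, mostly Krt19 (means of 62.7 and 78.4 CPM). Fst, Wnt5a, Flt1, Kdr, Krt8, Krt18 and Krt19 were also named after their values were seen. None of the 4 tested muscle and 6 tested adipocyte markers was past an unadjusted p of 0.05. Such sums mostly reflect the most abundant genes of a list and do not measure amounts of cells. The part of any of these cell types in the sex differences of Pgr and Fkbp5 was not tested.

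The oestrogen receptors showed no call. Esr1 (chromosome 10, 4611593 to 5005614, plus strand) encodes the receptor that mediates most oestrogen responses of the uterus, and it had 4.36, 5.47, 5.66, 5.42 and 4.09 CPM in the female libraries, against 5.58, 4.01, 5.99, 4.69 and 5.20 CPM in the male ones. The sexes overlapped throughout, at 5.00 ± 0.719 CPM in females and 5.09 ± 0.771 CPM in males (SD, n = 5 each), with a log2 fold change of -0.023 and a 95% interval of -0.29 to 0.24 (edgeR adjusted p = 0.999). Esr2 (chromosome 12, 76120419 to 76177259, minus strand), the second oestrogen receptor, had 2.17, 2.23, 2.65, 2.33 and 2.57 CPM in the female libraries, against 2.30, 3.56, 4.20, 1.80 and 3.88 CPM in the male ones. The females sat close together inside the male range, while male replicates 2, 3 and 5 lay above every female and male replicate 4 below every female. The coefficient of variation of Esr2 was accordingly 8.81% in females, where counting alone would give 10.3%, and 33.1% in males, where it would give 9.33%. Its log2 fold change was -0.40 with a standard error of 0.21 (edgeR adjusted p = 0.946), and -0.24 when reads that map to several places were included. Esr2 was the member with the largest share of such reads, with unique reads making up 69.5% to 80.8% of its reads in females and 61.4% to 89.1% in males.

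The glucocorticoid receptor was not called between the sexes. Nr3c1 (chromosome 18, 39410545 to 39491301, minus strand) had 85.3, 84.5, 99.9, 102 and 109.6 CPM in the female libraries, against 90.1, 90.1, 105, 90.0 and 112 CPM in the male ones. Each sex held lower libraries (84.5 and 85.3 CPM in females, 90.0 to 90.1 CPM in males) and higher ones, and the ranges overlapped almost wholly. The means were 96.3 ± 11.0 CPM in females and 97.4 ± 10.3 CPM in males (SD, n = 5 each), with a log2 fold change of -0.016 and a 95% interval of -0.18 to 0.15 (edgeR adjusted p = 0.999). The spread between libraries of a sex exceeded counting error, with a coefficient of variation of 11.4% in females and 10.6% in males, where counting alone would give 1.62% and 1.68%.

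Nr3c2 (chromosome 8, 76899442 to 77245012, plus strand), the receptor through which aldosterone acts in the kidney, had 2.09, 3.93, 3.30, 2.78 and 3.09 CPM in the female libraries, against 4.35, 3.86, 2.95, 2.64 and 3.80 CPM in the male ones. Female replicate 1 was the lowest and male replicate 1 the highest, and the other 8 libraries overlapped. The log2 fold change was -0.21 with a standard error of 0.18 (edgeR adjusted p = 0.999), and it was -0.11 without female replicate 1 and -0.32 without female replicate 2. The noncoding gene Gm10649 overlaps Nr3c2 on the opposite strand over 1180 bases and had 351 unique reads in all, beside 1249 for Nr3c2. The libraries keep strand, but whether the counting used it is not given in the sources used here, so reads of the pair may be mixed.

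Fkbp5 (chromosome 17, 28399095 to 28517524, minus strand) had the second smallest p of the 8. It had 41.3, 44.1, 35.7, 39.5 and 44.1 CPM in the female libraries, against 39.5, 31.6, 27.2, 35.5 and 31.6 CPM in the male ones. Only male replicate 1 reached into the female range, and the female value was the higher one in 23 of the 25 pairings. The means were 40.9 ± 3.54 CPM in females and 33.1 ± 4.64 CPM in males (SD, n = 5 each). The log2 fold change was 0.31 with a standard error of 0.092 and a 95% interval of 0.13 to 0.49, and the test over all genes was not passed (edgeR adjusted p = 0.582, unadjusted 0.00456). It was not passed with exon reads, at a log2 fold change of 0.35 (edgeR adjusted p = 0.339), with intron reads, at 0.20 (adjusted p = 1.00), or in DESeq2 (adjusted p = 0.249), and the authors' deposited table gives a false discovery rate of 0.824. Of all tested genes, 936 had a larger log2 fold change in the female direction. An antisense transcript, AC154912.1, overlaps 9958 bases of Fkbp5 in the GENCODE annotation, and reads of the pair may be mixed in the same way.

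Tsc22d3 encodes GILZ, a leucine zipper protein that mediates anti-inflammatory effects of glucocorticoids. It lies on the X chromosome (140539528 to 140600659, minus strand) and had 22.3, 21.4, 18.6, 19.4 and 18.9 CPM in the female libraries, against 20.3, 22.5, 16.8, 22.5 and 19.1 CPM in the male ones. All female values lay inside the male range, and the log2 fold change was -0.010 with a 95% interval of -0.18 to 0.16 (edgeR adjusted p = 0.999). The mean was 20.1 ± 1.65 CPM in females and 20.2 ± 2.42 CPM in males (SD, n = 5 each). Zbtb16 (chromosome 9, 48654297 to 48836222, minus strand), a zinc finger repressor, had 15 to 44 unique gene reads in a library. It was at 0.542, 0.745, 0.926, 0.646 and 0.681 CPM in the female libraries, against 0.654, 1.00, 0.833, 0.434 and 0.981 CPM in the male ones. The sexes overlapped, with a log2 fold change of -0.14 and a 95% interval of -0.64 to 0.36 (edgeR adjusted p = 0.999). Differences inside that interval, in either direction, are not excluded. Leaving out 1 library moved the log2 fold change of Zbtb16 to between -0.29 (without male replicate 4) and -0.033 (without male replicate 2).

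Promoters of Fkbp5 and Tsc22d3 are shown because the covariation of glucocorticoid targets is described further on. Each is 250 bases before a RefSeq start on GRCm38.p6, read 5′ to 3′ on the minus strand, with capitals for an arm of the glucocorticoid element (GAACA or TGTTC) or of the oestrogen element (GGTCA or TGACC). The Fkbp5 window is chr17:28486150-28486399. The Tsc22d3 windows belong to separate starts, start a at chrX:140542669-140542918, start b at chrX:140548572-140548821 and start c at chrX:140600523-140600772.
Fkbp5: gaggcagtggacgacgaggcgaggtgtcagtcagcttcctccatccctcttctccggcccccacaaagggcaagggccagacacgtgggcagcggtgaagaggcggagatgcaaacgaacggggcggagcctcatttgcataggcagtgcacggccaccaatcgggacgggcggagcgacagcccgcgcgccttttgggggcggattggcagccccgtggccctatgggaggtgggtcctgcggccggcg
Tsc22d3, start a: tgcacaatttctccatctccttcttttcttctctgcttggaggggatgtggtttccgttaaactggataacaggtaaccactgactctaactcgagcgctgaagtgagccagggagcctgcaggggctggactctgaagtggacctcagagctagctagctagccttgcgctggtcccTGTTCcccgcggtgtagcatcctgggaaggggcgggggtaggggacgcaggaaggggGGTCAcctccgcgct
Tsc22d3, start b: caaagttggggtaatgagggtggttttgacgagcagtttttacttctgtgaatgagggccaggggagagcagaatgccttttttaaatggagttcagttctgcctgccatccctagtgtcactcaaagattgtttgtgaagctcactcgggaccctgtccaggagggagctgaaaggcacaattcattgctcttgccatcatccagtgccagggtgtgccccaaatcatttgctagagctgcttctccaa
Tsc22d3, start c: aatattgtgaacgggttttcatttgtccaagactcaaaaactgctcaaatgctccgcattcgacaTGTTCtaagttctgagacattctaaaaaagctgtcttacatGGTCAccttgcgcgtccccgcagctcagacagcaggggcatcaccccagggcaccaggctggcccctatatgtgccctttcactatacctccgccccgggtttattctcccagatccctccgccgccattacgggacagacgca
The Tsc22d3 windows at starts a and c each held 1 arm of each kind, while the window at start b and the Fkbp5 window held none of the 4 motifs. Single arms of either kind are common, as given above for Pgr, and a match in letters is no evidence of binding. The lack of a match in such a window is no evidence against binding elsewhere.

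**Figure D2:**
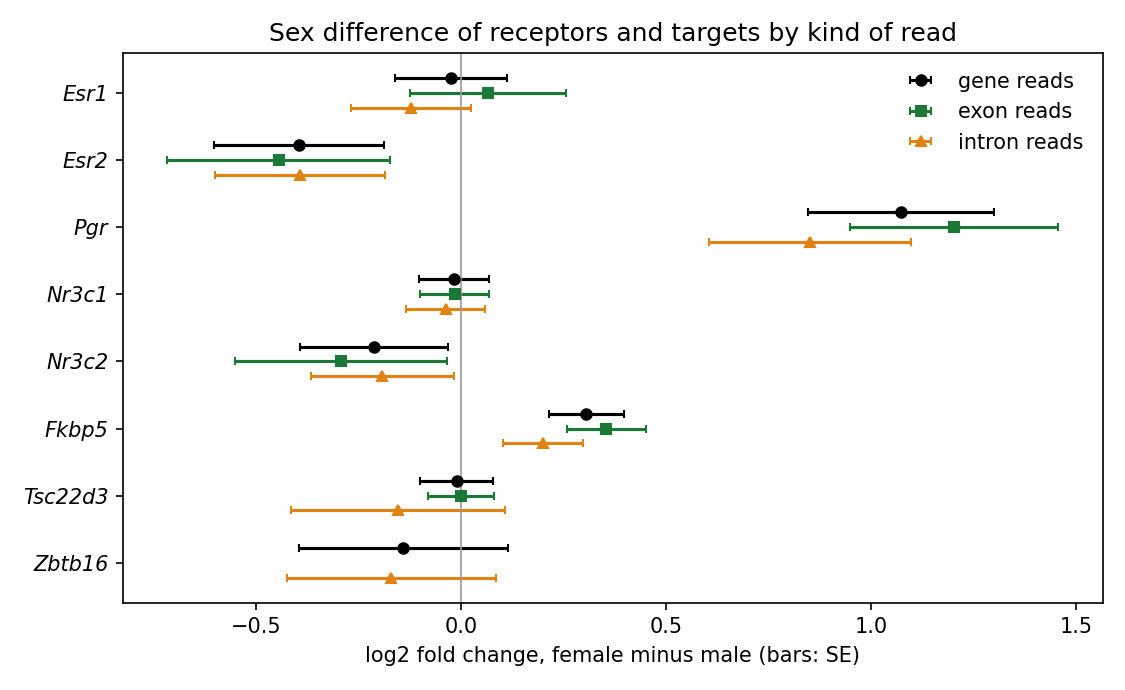
Log2 fold change, female minus male, of each gene from edgeR fits to gene reads (circles), exon reads (squares) and intron reads (triangles), with bars of 1 standard error. Pgr stands at 1.07, 1.20 and 0.85 and Fkbp5 at 0.31, 0.35 and 0.20, while the 3 estimates for Nr3c1 lie on the zero line; Zbtb16 has no value for exon reads because it did not pass the filter there.

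Total RNA depleted of ribosomal RNA also holds unspliced transcripts, and the 8 genes differed widely in how many of their reads came from introns. Summed over the libraries, introns held 89.9% of the unique reads of Zbtb16, 75.5% of Nr3c2, 61.8% of Esr2, 55.7% of Esr1, 35.5% of Pgr, 34.8% of Fkbp5, 24.7% of Nr3c1 and 4.03% of Tsc22d3. The median over 15613 genes was 22.4%, with quartiles at 9.26% and 51.2%. The low-level receptors Nr3c2, Esr2 and Esr1 thus lay above the upper quartile, while Pgr, also at a low level, lay inside the quartiles. The abundant receptor Nr3c1 lay near the median and Tsc22d3 below the lower quartile.

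Few reads of Zbtb16 were exonic. Of 286 unique gene reads in the 10 libraries, 257 fell in introns, 29 in exons and 3 across an exon junction. Male replicates 1 and 4 had 0 exon reads, and in male replicate 2, the highest, there were 8. The CPM values of Zbtb16 above are thus mostly intron reads.

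Intron share depends on gene length, since the introns of these genes are far longer than their exons. Per kilobase, exon reads exceeded intron reads 312-fold in Tsc22d3, 33.0-fold in Fkbp5, 30.1-fold in Nr3c1, 22.2-fold in Esr1, 17.0-fold in Nr3c2, 12.8-fold in Pgr, 9.80-fold in Esr2 and 3.77-fold in Zbtb16. The median over the same genes was 17.9-fold, with quartiles at 6.07 and 38.1. On this scale Nr3c2 was close to the median although introns held most of its reads, and only Tsc22d3 and Zbtb16 lay outside the quartiles.

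No sex difference in intron share was found for the 8 genes. Pgr had an intron share of 33.5%, 31.5%, 33.6%, 35.6% and 40.0% in female replicates 1 to 5, against 53.8%, 25.0%, 43.1%, 33.9% and 39.8% in male replicates 1 to 5. The male shares of Pgr spread more widely and rested on fewer reads, 58 to 112 unique gene reads a library in males beside 110 to 298 in females. The means were 34.8% ± 3.24 in females and 39.1% ± 10.7 in males (SD, n = 5 each; two-sided exact permutation p = 0.437). The difference of -4.30 percentage points was -0.62 without male replicate 1 and -7.83 without male replicate 2. Over the 8 genes the two-sided exact permutation p ran between 0.333 (Nr3c2) and 0.944 (Nr3c1), and each was 1 after Benjamini-Hochberg adjustment over 15596 genes, of which 2.26% had an unadjusted p under 0.05. The smallest p that 5 libraries against 5 allow is 0.00794. Adjusted over 15596 genes, even that p could pass 0.05 only if very many genes shared it. The adjusted values therefore decide nothing about the 8 genes. Over whole libraries the intron share was 25.5% to 28.6% in females and 22.5% to 28.1% in males.

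**Figure D3:**
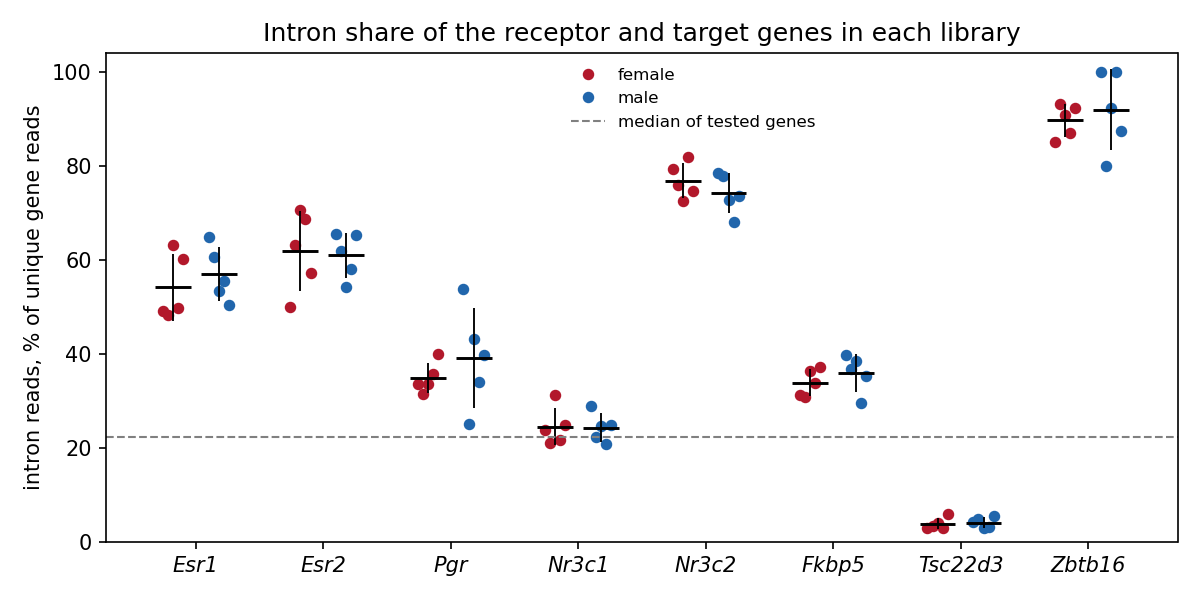
Share of unique gene reads that fell in introns, in percent, for each gene in each library (points), female left of male, with bars for the mean and lines for 1 SD (n = 5); the dashed line is the median of all tested genes, 22.4%. The sexes overlap for every gene, Zbtb16 lies highest and Tsc22d3 lowest.

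The correlation of Pgr with Esr1 across the libraries did not pass the test. On log2(CPM + 0.5) values, Pearson's r was 0.23 (permutation p = 0.508) and Spearman's rho 0.20 (permutation p = 0.585; n = 10). The 7 correlations of this kind were adjusted together by the Benjamini-Hochberg method, which left p = 0.508 for r. Of all tested genes, 25.2% had an r with Esr1 at least as high as Pgr had. Without female replicate 5 and male replicate 2, the 2 libraries farthest from the median of Esr1, r was -0.18, so the weak positive value rested on those libraries. Within the sexes, after centring, r was 0.49 (permutation p = 0.181). The female libraries with the most Pgr, replicates 2 and 3, were also those with the most Esr1, while the male library with the most Esr1, replicate 3, was next to lowest in Pgr.

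No pair of the 3 glucocorticoid targets had a correlation that passed the test. Fkbp5 with Tsc22d3 had an r of 0.38 (permutation p = 0.273, adjusted 0.378) and a rho of 0.15 (permutation p = 0.682). Without male replicates 3 and 5, the 2 libraries farthest from the median of Fkbp5, r was -0.30. Male replicate 3 was the lowest library for both genes. Zbtb16 had an r of -0.50 with Fkbp5 (rho -0.45) and of -0.42 with Tsc22d3 (rho -0.38), both with an adjusted permutation p of 0.378. Without the 2 farthest libraries these were -0.37 and -0.18.

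The largest correlation of the 7 was a negative one, between the glucocorticoid receptor and Tsc22d3. Nr3c1 with Tsc22d3 had an r of -0.79 (permutation p = 0.00864) and a rho of -0.75 (permutation p = 0.0165; n = 10), and after adjustment over the 7 correlations p was 0.0605 for r and 0.116 for rho, which missed the threshold. Without female replicate 5 and male replicate 5, the 2 libraries farthest from the median of Nr3c1, r was -0.87, and after sex-centring it was -0.79 (permutation p = 0.0130). The libraries fell at both ends. Female replicates 1 and 2 and male replicates 2 and 4 were low in Nr3c1 and high in Tsc22d3. Female replicates 3 to 5 and male replicates 3 and 5 lay the other way. Male replicate 1 was low in Nr3c1, at 90.1 CPM, and between the groups in Tsc22d3, at 20.3 CPM. Of all tested genes, 96.6% had a higher r with Nr3c1 than Tsc22d3 did. Exon reads alone gave an r of -0.81, while intron reads alone gave 0.08. The intron value rested on few reads, since Tsc22d3 had only 15 to 43 unique intron reads in a library. Each point shares a library, its depth and its scaling factor, and the part of these in the relation was not tested. Nr3c1 with Fkbp5 had an r of -0.35 (rho -0.35) and with Zbtb16 one of 0.41 (rho 0.37), each with an adjusted permutation p of 0.378. Without female replicate 5 and male replicate 5 these were -0.61 and 0.34.

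**Figure D4:**
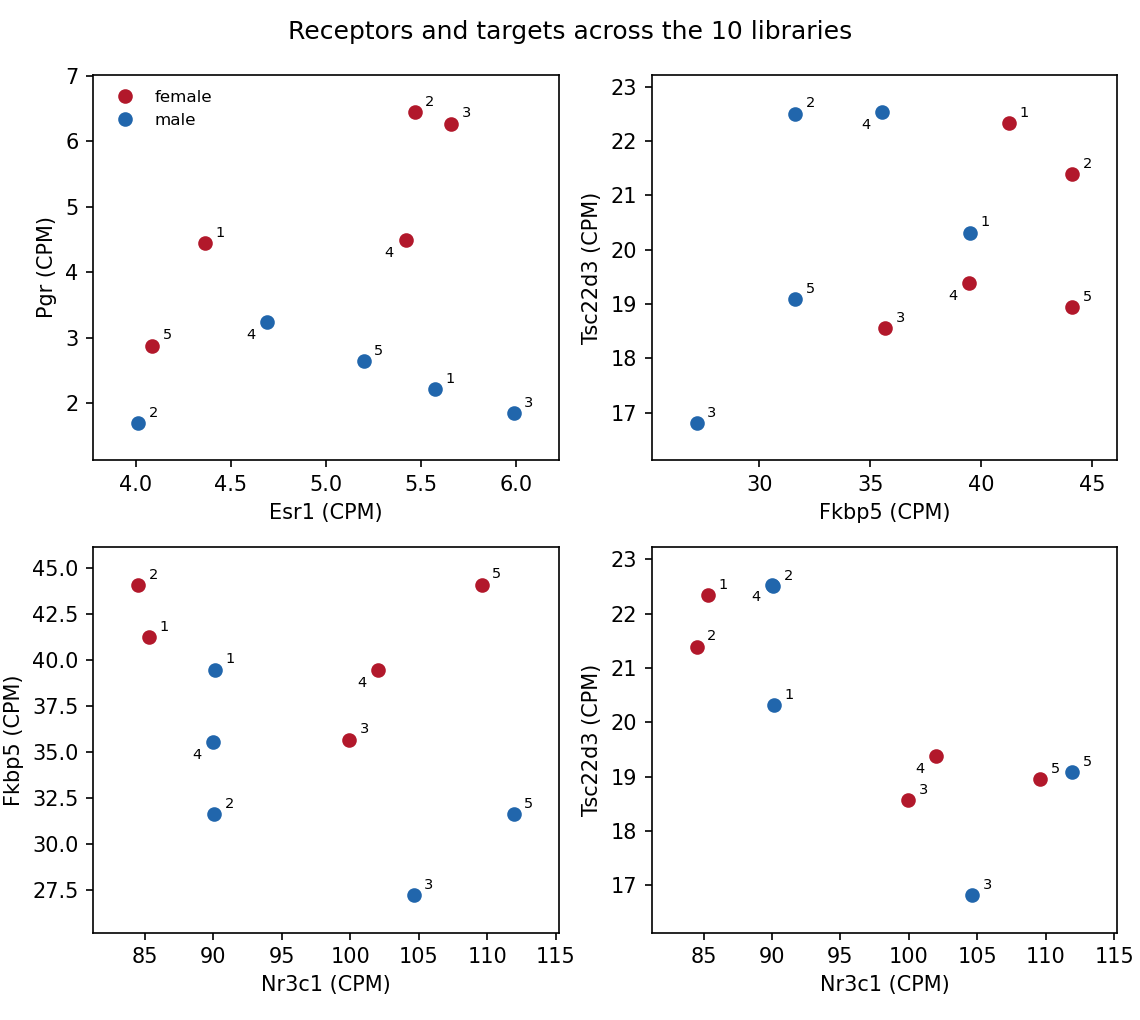
CPM of pairs of genes in the 10 libraries, female points red and male points blue with the replicate number beside each: Pgr against Esr1, Tsc22d3 against Fkbp5, Fkbp5 against Nr3c1 and Tsc22d3 against Nr3c1. Only Tsc22d3 against Nr3c1 shows a clear slope, with r = -0.79 on log2 values, and male replicates 2 and 4 nearly coincide there.

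The wider list of glucocorticoid targets was set beside Nr3c1 and Tsc22d3 as a description, with no p. Of 27 tested targets, 13 (48.1%) had an r of -0.5 or lower with Nr3c1, where 15.5% of all tested genes did, and 4 (14.8%) had an r of 0.5 or higher, where 15.9% of all genes did. The lowest were Lpin1, a phosphatidate phosphatase gene, at -0.92, Rgs2, a regulator of G protein signalling, at -0.91, Ddit4, an inhibitor of mTOR signalling, at -0.91, and the metallothionein gene Mt1 at -0.87. The highest were Txnip, at 0.67, and the phosphatase gene Dusp1, at 0.66. Of the 26 other targets, 7 (26.9%) had an r of 0.5 or higher with Tsc22d3, where 13.9% of all genes did, and 0 had one of -0.5 or lower, with Ddit4 (0.86), Mt1 (0.78) and Rgs2 (0.75) the highest. Fkbp5 had 1 target at 0.5 or higher, the clock gene Per1 at 0.56, and 3 at -0.5 or lower, of which the kinase gene Sgk1 was lowest at -0.85. These are 3.85% and 11.5% of the list, where 10.7% and 11.5% of all genes had such values with Fkbp5. Zbtb16 had 0 targets at 0.5 or higher and 3 (11.5%) at -0.5 or lower, where 7.04% and 6.70% of all genes did. The targets named here were picked by their values, and their libraries are the same 10.

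The genes whose levels were most like those of Pgr, Fkbp5 and Tsc22d3 over the 10 libraries were looked up among 13378 genes of at least 1 mean CPM, by Pearson r of log2(CPM + 0.5). For Pgr these were the ribosomal protein gene Rps18 (0.93), the centromere protein gene Cenpm (0.91) and the predicted gene Gm9888 (0.89). For Fkbp5 they were the protein kinase gene Prkd3 (0.97), the coronin gene Coro2b (0.96) and the chemokine gene Cxcl12 (0.96). For Tsc22d3 they were Raet1e (0.94), the carbonyl reductase gene Cbr1 (0.94) and the semaphorin gene Sema4c (0.94). These genes were picked as the highest of all genes compared, so their r values are a description with no test. The values were not centred on the sexes. All genes named here for Pgr and Fkbp5 also had the higher mean in females, such as Rps18 at 64.9 CPM against 56.4 CPM in males. The part of this shared difference in the r values was not tested.

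None of the pathway lists around the receptors held a call in either direction with edgeR, in a table where the median log2 fold change over all tested genes was 0.0048 and 52.1% were positive. DESeq2 called 1 gene of these lists, Pgr. Of 15 hormone receptors, 14 were tested, with a median of -0.02, and Pgr alone was past an unadjusted p of 0.05. The membrane-associated progesterone receptor components Pgrmc1 and Pgrmc2 were the most abundant of this list, at 65.4 ± 5.64 and 19.8 ± 1.56 RPKM (SD, n = 10), with log2 fold changes of -0.055 and -0.025. The membrane progestin receptor genes Paqr8 and Paqr5 had log2 fold changes of -0.081 and 0.30, and the orphan receptor gene Esrra had 0.062. All 5 had an edgeR adjusted p of at least 0.948.

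Of 15 receptor chaperones, all 15 were tested, with a median of 0.03, and 13 were positive. Those past an unadjusted p of 0.05 were Fkbp5 and Stub1, a ubiquitin ligase gene, at 37.0 ± 2.17 CPM in females and 33.2 ± 2.11 CPM in males (SD, n = 5 each; log2 fold change 0.16, edgeR adjusted p = 0.792). Fkbp4, the cochaperone that competes with Fkbp5 for the receptor complex, was at 118 ± 9.54 CPM in females and 108 ± 10.7 CPM in males (log2 fold change 0.13, edgeR adjusted p = 0.977). The cytosolic heat shock chaperone gene Hsp90ab1, the highest of the list at 507 ± 18.1 RPKM, and Hspa8, at 95.9 ± 5.34 RPKM (SD, n = 10), had log2 fold changes of 0.04 and -0.08. All 19 coregulators were tested, with a median of 0.03 and none past an unadjusted p of 0.05. Among them the pioneer factor genes Foxa1 and Gata3 had log2 fold changes of 0.51 and -0.20, the arginine methyltransferase gene Prmt1 had 0.11 and the chromatin remodelling ATPase gene Smarca4 had 0.03.

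Of 30 glucocorticoid targets, 27 were tested, with a median log2 fold change of -0.03, 9 positive and 18 negative. Beside Fkbp5, those past an unadjusted p of 0.05 had the lower mean in females, a direction for which no share over all genes was worked out. Sgk1, a kinase gene that promotes sodium uptake, was at 78.1 ± 11.3 CPM in females and 96.0 ± 12.8 CPM in males (log2 fold change -0.30, edgeR adjusted p = 0.742), and Angptl4, an inhibitor of lipoprotein lipase, was at 4.52 ± 0.648 CPM in females and 6.02 ± 0.991 CPM in males (log2 fold change -0.41, edgeR adjusted p = 0.647; SD, n = 5 each). The most abundant targets per length were Anxa1, an anti-inflammatory annexin gene, at 283 ± 19.1 RPKM, and the cell cycle inhibitor gene Cdkn1a, at 151 ± 10.5 RPKM (SD, n = 10), with log2 fold changes of -0.03 and -0.01, and the related inhibitor gene Cdkn1c had 0.17. Fkbp5, positive, and Sgk1, negative, were named for their small p, and neither was called. The part of the glucocorticoid receptor in either difference was not tested.

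Of 23 oestrogen and progesterone targets, 20 were tested, with a median log2 fold change of 0.04. Besides Pgr, those past an unadjusted p of 0.05 were Cxcl12 at 0.39, the cyclin gene Ccnd1 at -0.16 and the homeobox gene Hoxa10 at -0.22, with edgeR adjusted p of 0.715, 0.850 and 0.890. Cxcl12 was at 163 ± 22.1 CPM in females and 124 ± 23.9 CPM in males (SD, n = 5 each). The lysosomal protease gene Ctsd, the most abundant of this list at 135 ± 11.0 RPKM (SD, n = 10), had a log2 fold change of -0.12. Of 24 steroid enzymes, 13 were tested, with a median of 0.01 and none past an unadjusted p of 0.05. Hsd11b2, which inactivates glucocorticoids, was at 1.82 ± 0.379 CPM in females and 1.48 ± 0.432 CPM in males (SD, n = 5 each; log2 fold change 0.30, edgeR adjusted p = 0.994). Hsd11b1, which reactivates them, did not pass the filter, with 39 unique reads over all libraries. Hsd3b6 had a log2 fold change of -0.75 (edgeR adjusted p = 0.946) at 0.331 ± 0.133 CPM in females and 0.558 ± 0.317 CPM in males, Srd5a3 had -0.16, and the abundant genes Hsd17b12 and Por had 0.01 and -0.03. Sts, a further gene of the list, was not analysed here.

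**Figure D5:**
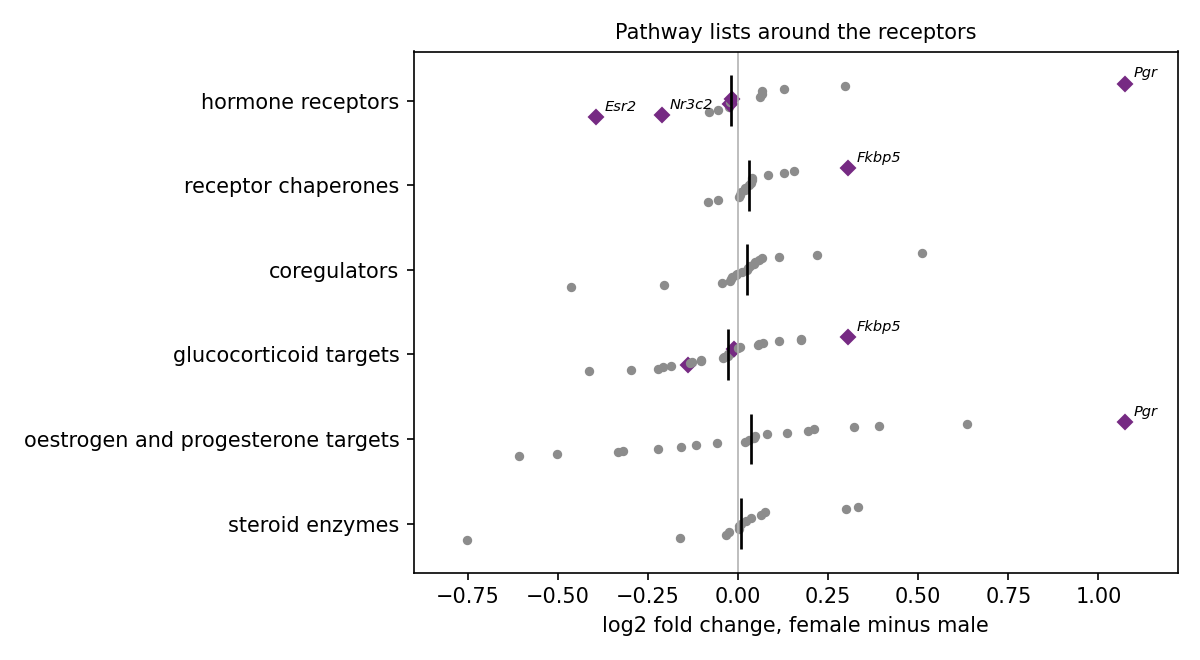
Log2 fold change, female minus male, of every tested gene of the 6 pathway lists; purple diamonds are the 8 receptor and target genes, grey dots the other genes, black bars list medians, and points are spread vertically only for legibility. List medians lie between -0.03 and 0.04, and Pgr lies farthest right at 1.07.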

How the data were processed

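The authors deposited whole-number counts per gene and library, not normalized, per the file headers, which separate unique from total reads and exon, intron and exon junction reads. They also deposited a p-value with its false discovery rate and a signed fold (a score) from their own test. Per the submitters' processing notes, the genome build is mm10. The sources used here do not give the aligner or the counting rules. The table's other 80 per-library columns stayed unused. The 8 genes, the gene lists and the tests were chosen with earlier results of these data known.

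Unique gene reads were fitted with edgeR 4.0.16 in R 4.3.3 (filterByExpr, minimum count 10; TMM; robust quasi-likelihood test on sex, two-sided), which tested 16602 genes. P-values were adjusted over all of them by the Benjamini-Hochberg method and called under 0.05. All log2 fold changes run female minus male; intervals are 1.96 standard errors. Levels are CPM with TMM scaling, or exon RPKM. Counting error is the spread that the read counts alone would give; it treats reads as independent molecules. Intron shares were compared by an exact permutation test with all 252 regroupings; adjustment over the 8 genes, as first designed, is not printed. Correlations used log2(CPM + 0.5) and 100000 resamples. Python 3.11.15 with scipy 1.17.1 was used. The count test was checked on simulated data.

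Besides the 8 genes, the text names in each list up to 3 genes with the smallest unadjusted p and the 2 with the most exon reads per kilobase, and the 3 genes most like Pgr, Fkbp5 and Tsc22d3; others were named after their values were seen. The named genes' alternatives were other scaling factors (DESeq2's size factors, upper quartile), other filters, DESeq2 1.42.0, limma-voom (limma 3.58.1), a replicate block, total, exon or intron reads, and leaving out each library. Promoters are from RefSeq (GRCm38.p6), with 6 of the 8 genes matched by symbol, and only those the results turn on are printed. The ends of Nr3c1 and Fkbp5 in the deposited table differ from those in GENCODE M21.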

Additional observations from a re-analysis of the deposited data

How the results depend on the processing

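The number of genes called between the sexes, 15 with edgeR, was 30 with no filter, 72 with DESeq2 and 43 with a replicate block, and 12 to 36 when 1 library was left out (36 without male replicate 1). The number of the 8 genes called was 1 with DESeq2 (Pgr, adjusted p = 0.00172) and 0 to 1 with a library left out (Pgr without female replicate 5, adjusted p = 0.0247), and 0 with every other alternative tried; the cause was not tested. Deviations of same-numbered libraries from their sex means had an r of 0.067, 0.0036, 0.046, 0.0070 and 0.178 for numbers 1 to 5. Only number 5 was over 0.1, and every number would have to be for the numbers to be taken as pairs. With the replicate block Pgr had a log2 fold change of 1.05 (edgeR adjusted p = 0.260) and Fkbp5 one of 0.31 (edgeR adjusted p = 0.117).

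Levels scaled to exon reads in place of gene reads, a smaller base by construction, were 0.223 for Esr1, 13.3 for Nr3c1, 0.168 for Nr3c2, 5.13 for Fkbp5 and 6.04 for Tsc22d3, with the order kept. Correlations that changed sign were Pgr with Esr1 (-0.18) and Fkbp5 with Tsc22d3 (-0.30) without the 2 farthest libraries, and, with intron reads, Tsc22d3 with Zbtb16 (0.27) and Nr3c1 with Tsc22d3 (0.081). Tsc22d3 had only 308 unique intron reads over all libraries. With 1 library left out, r ran between -0.022 and 0.51 for Pgr with Esr1, -0.060 and 0.59 for Fkbp5 with Tsc22d3, -0.69 and -0.42 for Fkbp5 with Zbtb16, -0.73 and -0.22 for Tsc22d3 with Zbtb16, -0.83 and -0.75 for Nr3c1 with Tsc22d3, -0.64 and -0.20 for Nr3c1 with Fkbp5 and 0.25 and 0.59 for Nr3c1 with Zbtb16.

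The female minus male intron share, in percentage points, ran between -1.21 and 3.95 for Esr2, -7.83 and -0.62 for Pgr, -1.45 and 1.34 for Nr3c1 and -0.71 and 0.16 for Tsc22d3 with 1 library left out. Log2 fold changes that changed sign, none of them called, were Esr1 at 0.038 with total reads and 0.066 with exon reads, and with exon reads Tsc22d3 (0.00015), Paqr5 (-0.060) and Hsd17b12 (-0.016). With intron reads they were Paqr8 (0.18), Pgrmc1 (0.065), Pgrmc2 (0.090), Fkbp4 (-0.087), Hsp90ab1 (-0.11), Smarca4 (-0.048), Cdkn1c (-0.31), Anxa1 (0.058) and Cdkn1a (0.075). With 1 library left out, log2 fold changes ran between -0.099 and 0.043 for Esr1, 0.96 and 1.22 for Pgr, -0.065 and 0.039 for Nr3c1, -0.069 and 0.030 for Tsc22d3, -0.085 and 0.014 for Pgrmc1, -0.076 and 0.018 for Pgrmc2, -0.062 and 0.021 for Cdkn1a, -0.032 and 0.070 for Hsd17b12 and -0.060 and 0.0076 for Por. Zbtb16 was too low to test with exon reads and with the stricter filter.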
